A study of Canis lupus familiaris with 29 samples.

Results

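The measurements described here ask what the MEK inhibitor U0126 did to messenger RNA levels in MDCK cells that were grown in collagen (3D) and given hepatocyte growth factor (HGF). MDCK is an established line of dog kidney epithelial cells, here the Type II line. The compared arrays are 3 of cells given HGF with U0126 and 4 of cells given HGF alone, 7 of the 29 Affymetrix canine arrays of the series, and they were chosen by their titles. All 7 share the cell line, the collagen culture and HGF, so HGF alone is the base against which U0126 is read. Other arrays serve as reference points: 3 of 3D cells given HGF with PD-98059, a second MEK inhibitor, 4 of untreated 3D cells (control), and, in flat (2D) culture, 3 with HGF and U0126 and 4 with HGF alone. The sources used here give no dose and no time of treatment. The cells are 1 line, so the replicates are arrays of that line, and the labels do not say whether they came from separate cultures. Each p-value therefore sets a difference against the scatter within groups, pooled over the 29 arrays, part of which may be technical. The small number of arrays limits the precision of every value.

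HGF is the ligand of the receptor tyrosine kinase MET, which signals through RAS, RAF, MEK and ERK as well as through other routes. MEK is the kinase that phosphorylates and activates ERK, and active ERK drives the transcription of early growth genes and of its own feedback inhibitors, such as the DUSP phosphatases. In kidney epithelium HGF is known for scattering, invasion of matrix and the formation of tubules. In MDCK cells grown in collagen, it makes the walls of cell-lined cysts send out extensions.

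Values are the authors' log2 levels per probe set, and each gene is given by its tested probe set with the highest mean over the 29 arrays. Each difference is of 2 group means and is given with limma's standard error, and a positive one means higher with U0126. Rises and falls are calls at an adjusted p of 0.05, by limma's moderated test over 16571 probe sets. A level under log2 5 is called dim, and background signal sets the size of any fold that starts or ends there.

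The epithelial markers KRT18, KRT8, CDH16 and EPCAM lay between log2 12.03 and 14.68 in all 7 arrays. CDH1 and PAX8 were dim in every array, at no more than log2 3.84 and 3.58, and were not tested. None of 7 fibroblast markers and none of 4 endothelial markers reached the level for testing, and of 5 immune cell markers only CD68 did, with levels of 2.79 to 2.85 with U0126 and 2.86 to 3.05 with HGF alone. The 4 HGF arrays differed more from each other than those of any other group. Their lowest correlation between 2 arrays was 0.964, against 0.987 among the U0126 arrays. Their mean absolute deviation from the group was 0.235, against 0.117 to 0.149 in the other groups. As the model pools the spread of all 8 groups, its errors may be too small for this comparison. The control probe sets for EEF1A1, GAPDH and ACTB give a measure of RNA quality, the level at the 3′ end minus that at the 5′ end or middle, averaged over the 3 genes. It was 1.61 ± 0.136 with U0126 (SD, n = 3) and 1.68 ± 0.583 with HGF alone (SD, n = 4). An exact two-sided permutation test of this difference gave p = 0.886, where 0.0286 is the smallest p that 35 arrangements allow. Its parts ran in different directions: ACTB was at 3.42 ± 0.245 with U0126 and 2.91 ± 0.783 with HGF alone (exact p = 0.314), and EEF1A1 at 0.538 ± 0.138 with U0126 and 1.25 ± 0.813 with HGF alone (exact p = 0.257). GAPDH was at 0.867 ± 0.0419 with U0126 and 0.873 ± 0.164 with HGF alone (exact p = 0.971). Of the 7 arrays, HGF replicates 1 and 4 had the highest and lowest average over the 3 genes, at 2.46 and 1.095. In bulk RNA such as this, fewer cells of a kind and less RNA per cell cannot be told apart.

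U0126 changed a large part of the measured transcriptome. Of 7052 tested genes, 1875 rose (26.6%) and 1765 fell (25.0%), with a median difference over all of them of -0.00551. Arrays of both groups did not overlap for 3138 genes (44.5%). Over probe sets, 4214 rose (25.4%) and 3952 fell (23.8%), and without HGF replicates 1 and 4 these were 3809 and 4213. The larger of both numbers changed with the scaling, with 4261 that rose and 4609 that fell under quantile normalization, and 3712 and 4992 under median centring. With these 7 arrays fitted alone, 2995 rose and 2700 fell. Among those called, 1668 rose by 2-fold or more (10.1%) and 921 fell by 2-fold or more (5.56%). Counts of gene lists below are to be read against the shares of 26.6% and 25.0%, and a lack of overlap against 44.5%.

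The largest rise was that of CXCL8, the neutrophil chemokine interleukin-8. Its level was 10.75, 10.68 and 11.13 with U0126 and 3.40, 3.07, 3.09 and 3.05 with HGF alone, a difference of 7.70 ± 0.18 or 208-fold (limma, adjusted p = 4.70e-21). Over the alternative fits its adjusted p reached 1.70e-06. It was dim in all 4 HGF arrays and high in all 3 U0126 arrays. PDZK1, a scaffold that holds transporters at the apical membrane of kidney tubule cells, came next with 6.16 ± 0.22 (71.6-fold). Its levels were 10.75, 11.04 and 10.77 with U0126 and 4.93, 4.52, 5.03 and 4.29 with HGF alone, again far apart. Of these HGF levels only 5.03 was not dim, so this fold also starts near background. The remaining 10 of the 12 largest rises lay between 4.92 and 5.59. They were FILIP1L, the chemokines CCL2 and CCL7, RANBP3L, the scavenging chemokine receptor ACKR3, the mTOR inhibitor DEPTOR, the Rac GTPase-activating protein ARHGAP24, the microsomal glutathione transferase MGST1, the glucuronosyltransferase UGT1A6 and the fatty acid-binding protein FABP1. CCL7, RANBP3L, ACKR3, DEPTOR, ARHGAP24, UGT1A6 and FABP1 were dim in every HGF array, so their folds start at background, and 1 of the 2 tested probe sets of ARHGAP24 rose.

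TIMP1, a secreted inhibitor of matrix metalloproteinases, fell most. It was at 4.80, 4.97 and 3.68 with U0126 and at 13.30, 13.85, 13.90 and 13.61 with HGF alone, a difference of -9.18 ± 0.30 or 581-fold (limma, adjusted p = 2.04e-18). Over the alternative fits its adjusted p reached 3.39e-06. All 3 U0126 arrays were dim, so the fold rests on background, while all 4 HGF arrays were near the bright end of the scale. The other 11 of the 12 largest falls ran from -3.62 to -6.98. They were the collagenases MMP1 and MMP13, the poly(A) polymerase TENT5A, the membrane raft protein MALL, the pyruvate dehydrogenase kinase PDK4, the stress kinase MAP3K5, the laminin chain LAMA3, the EGF receptor ligand EREG, the glycolytic regulator PFKFB3, the laminin-binding integrin chain ITGA6 and ANTXR2. U0126 replicate 2 lay apart from the other U0126 arrays for some of them. It was at 3.23 against 5.25 and 4.58 for MAP3K5, and at 6.58 against 8.48 and 8.05 for ANTXR2. The 12 largest rises and the 12 largest falls were chosen among called genes without overlap of arrays, so this choice set their lack of overlap.

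**Figure D1:**
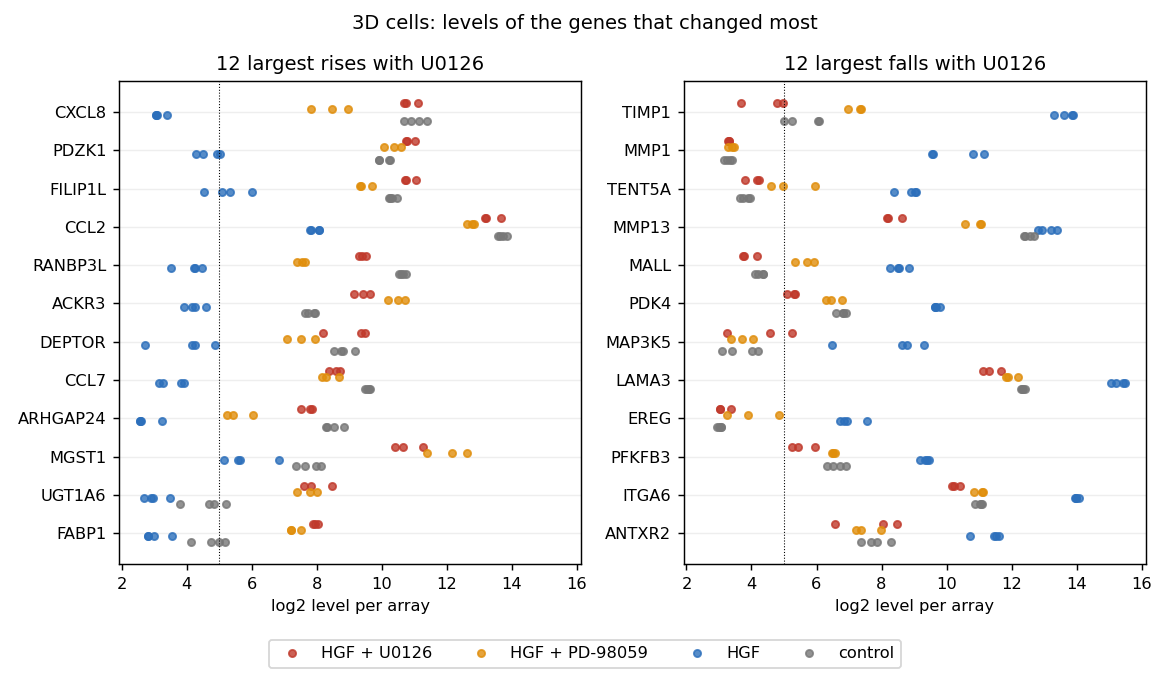
Log2 level per array (x axis) of the 12 genes with the largest rise (left) and the 12 with the largest fall (right) with U0126 in HGF-treated 3D cells, 1 point per array, for HGF with U0126, HGF with PD-98059, HGF and control. The dotted line marks log2 5, under which a level is dim. CXCL8 lies at 10.68 to 11.13 with U0126 and at 3.05 to 3.40 with HGF alone, and TIMP1 at 3.68 to 4.97 with U0126 and at 13.30 to 13.90 with HGF alone.

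Genes known as transcriptional outputs of ERK fell. Of 20 listed, 8 were tested, 7 fell and none rose, with a median of -1.53, and the eighth, the transcription factor ETV1, did not pass at -0.54 ± 0.23 (adjusted p = 0.0556). DUSP5, a nuclear phosphatase that inactivates ERK, was at 7.36, 7.34 and 7.10 with U0126 and at 9.21, 10.16, 10.07 and 10.23 with HGF alone (-2.65 ± 0.21, 6.27-fold). DUSP6, its cytoplasmic counterpart, was at 12.48, 12.64 and 12.77 with U0126 and at 13.80, 13.69, 13.90 and 13.46 with HGF alone (-1.08 ± 0.10, 2.12-fold). Both phosphatases were thus lower in every U0126 array than in any HGF array, and DUSP6 stayed bright.

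CCND1, the G1 cyclin D1, was at 11.39, 11.45 and 11.73 with U0126 and at 13.43, 13.30, 13.34 and 13.04 with HGF alone (-1.76 ± 0.13). MYC, a growth-promoting transcription factor, was at 7.63, 7.62 and 7.59 with U0126 and at 8.58, 9.31, 9.02 and 9.33 with HGF alone (-1.44 ± 0.14). The groups did not overlap for either gene. The receptor kinase EPHA2 was dim in all U0126 arrays, at 2.40, 2.38 and 2.43, against 4.16, 4.996, 5.01 and 6.64 with HGF alone (-2.80 ± 0.37), so its levels lay near background. PHLDA1 fell by 1.61 ± 0.22, and IER3, an immediate early survival gene, by 0.56 ± 0.18. The IER3 call was lost without U0126 replicate 2, with an adjusted p of 0.0926. Further ERK outputs could not be read: HBEGF, SPRED1, SPRED2, EPHA4, ETV4, ETV5 and FOSL1 did not exceed log2 2.98 in any array, and no probe set was named for DUSP4 or SPRY2 alone.

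Of 22 immediate early genes, which are transcribed within minutes of a growth stimulus, 8 were tested, 7 fell and none rose, with a median of -1.48. FOS, a subunit of the transcription factor AP-1, was at 11.91, 11.91 and 12.23 with U0126 and at 13.90, 14.10, 14.06 and 13.78 with HGF alone (-1.94 ± 0.10, 3.85-fold). Its partner JUN was at 10.48, 9.39 and 10.42 with U0126 and at 11.70, 11.28, 11.78 and 11.68 with HGF alone (-1.51 ± 0.25). Neither AP-1 gene overlapped between groups. KLF6 fell by 1.68 ± 0.12 and KLF4 by 1.49 ± 0.17, both zinc-finger transcription factors. EGR1 fell by 1.47 ± 0.29 to a dim mean, from a base where HGF replicate 1 was at 7.18 and the others at 5.22 to 5.71. SRF, the factor that drives many of these genes, did not pass, at -0.31 ± 0.14.

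**Figure D2:**
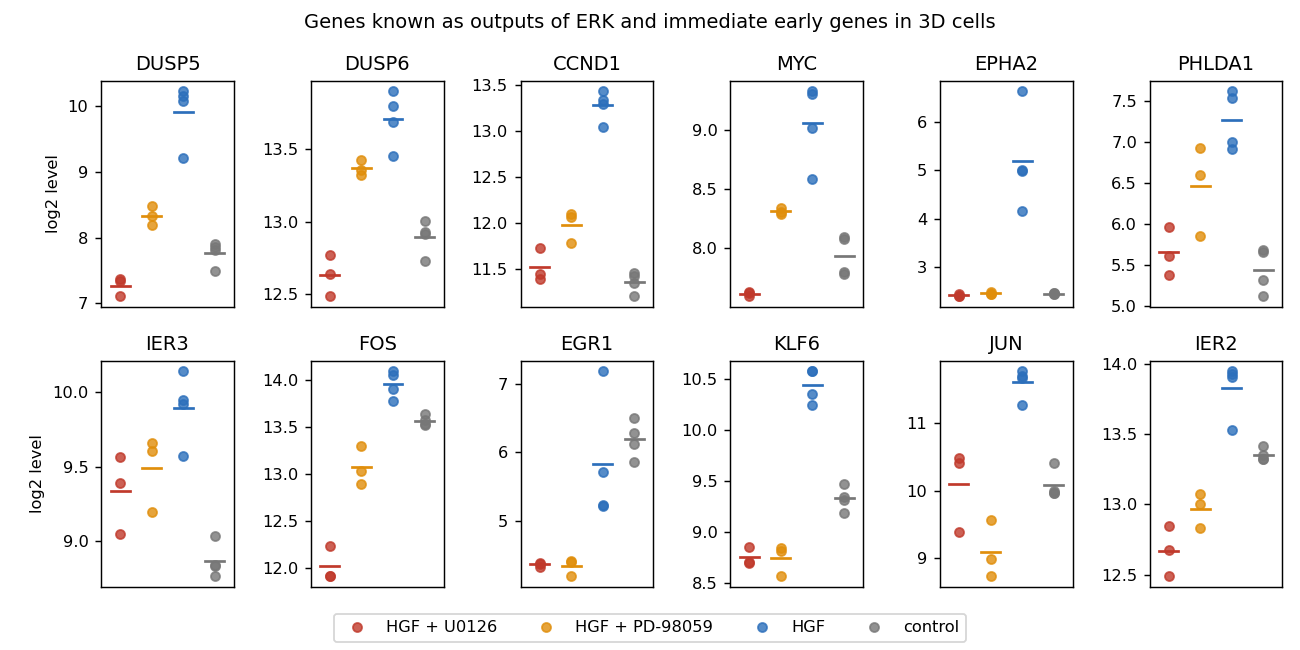
Log2 level (y axis, scaled per gene) of 12 ERK output and immediate early genes in 3D cells, with 1 point per array and a line at the group mean, for HGF with U0126, HGF with PD-98059, HGF and control. DUSP5 lies at 7.10 to 7.36 with U0126 and at 9.21 to 10.23 with HGF alone, and FOS at 11.91 to 12.23 with U0126 and at 13.78 to 14.10 with HGF alone.

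Components of the pathway itself were called in no larger share than all tested genes. MAP2K1, which encodes MEK1, a target of U0126, was at 11.85, 11.72 and 12.05 with U0126 and at 11.62, 11.80, 11.91 and 11.83 with HGF alone. The groups overlapped, and the difference of 0.08 ± 0.09 did not pass (adjusted p = 0.455), while of its 3 tested probe sets 1 rose and 1 fell. Its sign turned, to -0.01 in both cases, without U0126 replicate 3 and under median centring, and under quantile normalization it was called at 0.18 (adjusted p = 0.0144). MAP2K2, which encodes MEK2, did not exceed log2 3.75 in any array. Of 18 tested MAPK and PI3K pathway components 4 rose and 3 fell, with a median of 0.07. Both counts lie under the shares of 26.6% and 25.0% over all tested genes. HRAS fell by 1.54 ± 0.22 and the adaptor SHC1 by 0.83 ± 0.20, while PIK3R1, the regulatory subunit of PI3 kinase, rose by 1.25 ± 0.09. The number that rose was 2 without HGF replicate 1 and 2 without HGF replicate 2, where BRAF and PIK3CB were no longer called.

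Among ligands and receptor tyrosine kinases, 9 of 22 were tested, of which 3 rose and 4 fell, with a median of -0.395. The EGF receptor ligand EREG was at 3.36, 3.02 and 3.02 with U0126 and at 6.94, 6.72, 6.86 and 7.56 with HGF alone, a difference of -3.88 ± 0.27 that ended at a dim level. VEGFA, the endothelial growth factor, fell by 1.88 ± 0.17, and EGFR by 0.60 ± 0.13. MET, the receptor for HGF, was at 7.69, 8.51 and 8.29 with U0126 and at 8.36, 8.72, 9.07 and 9.47 with HGF alone (-0.74 ± 0.18), with overlapping arrays, and the call was lost when these 7 arrays were fitted alone (adjusted p = 0.0919). ERBB3 rose by 2.13 ± 0.15, FGFR2 by 0.96 ± 0.07 and the collagen receptor DDR1 by 0.57 ± 0.13.

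Secreted proteases and their inhibitors moved unequally. Of 15 tested, 6 fell and 3 rose, with a median of -0.08. MMP1 was at 3.29, 3.31 and 3.30 with U0126 and at 9.54, 9.59, 10.81 and 11.17 with HGF alone (-6.98 ± 0.48), and MMP13 was at 8.21, 8.16 and 8.63 with U0126 and at 12.93, 12.81, 13.22 and 13.39 with HGF alone (-4.76 ± 0.37). MMP1 fell to a dim level in all U0126 arrays, while MMP13 remained above it. SERPINE2, an inhibitor of serine proteases, fell by 2.05 ± 0.13, the urokinase gene PLAU by 1.70 ± 0.27 and the gelatinase MMP2 by 0.95 ± 0.24. The other gelatinase MMP9 went the other way, at 7.59, 7.67 and 8.12 with U0126 and at 6.61, 7.06, 6.80 and 6.27 with HGF alone (1.104 ± 0.26). TFPI2 and SPINT2 also rose, by 0.68 ± 0.25 and 0.27 ± 0.11, and each lost its call in several alternatives, such as without U0126 replicate 3 (adjusted p = 0.1195 for TFPI2 and 0.274 for SPINT2).

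Of 14 tested genes of mesenchymal character 8 fell and 2 rose, with a median of -0.41. SNAI2, a transcription factor that represses epithelial genes, was at 9.25, 9.27 and 9.55 with U0126 and at 12.60, 13.09, 13.13 and 12.76 with HGF alone (-3.54 ± 0.13, 11.6-fold). N-cadherin, CDH2, was dim with U0126, at 4.57, 4.48 and 4.60, against 8.68, 7.83, 8.30 and 7.25 with HGF alone (-3.47 ± 0.24). ZEB1 fell by 1.47 ± 0.14, TGFB1 by 1.16 ± 0.14 and fibronectin, FN1, by 1.11 ± 0.14, and vimentin, VIM, fell by 0.47 ± 0.10 while it stayed near the top of the scale. The 2 that rose were the collagen cross-linking enzyme LOXL2, by 2.84 ± 0.12, and smooth muscle actin, ACTA2. ACTA2 was at 9.57, 9.38 and 9.85 with U0126 and at 6.59, 3.05, 5.46 and 4.56 with HGF alone (4.68 ± 0.41), where the HGF arrays were widely spread.

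Of the desmosome, hemidesmosome and keratin list, 11 of 17 fell and 1 rose, with a median of -0.56. The laminin chain LAMA3 was at 11.13, 11.30 and 11.67 with U0126 and at 15.21, 15.49, 15.43 and 15.07 with HGF alone (-3.93 ± 0.12, 15.3-fold). ITGA6, the integrin chain that binds that laminin, was at 10.18, 10.24 and 10.41 with U0126 and at 13.99, 13.94, 14.08 and 13.98 with HGF alone (-3.72 ± 0.09, 13.2-fold). Both are among the 12 largest falls, which were chosen among called genes without overlap of arrays. S100A2 fell by 3.32 ± 0.12, the desmosomal cadherin DSG3 by 2.97 ± 0.18 and the laminin chain LAMB3 by 2.27 ± 0.30. Desmoplakin, DSP, was the 1 member that rose, by 0.43 ± 0.15, and it was not called without U0126 replicate 2 (adjusted p = 0.0992) or without HGF replicate 1 (0.0600).

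Of tight junction and polarity genes, 6 of 18 rose and 3 fell, with a median of 0.15. Claudin 2, CLDN2, which forms cation pores in leaky kidney epithelia, was dim in every HGF array. CLDN2 was at 5.64, 6.01 and 4.93 with U0126 and at 3.50, 3.82, 3.42 and 3.40 with HGF alone (1.99 ± 0.22). The junctional adaptor cingulin, CGN, rose by 1.88 ± 0.17, the apical polarity protein CRB3 by 1.42 ± 0.20 and occludin, OCLN, by 0.79 ± 0.10. PARD3, a scaffold of the apical polarity complex, fell by 1.84 ± 0.08 and TJP3 by 0.95 ± 0.13.

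Genes of kidney tubule transport rose or did not pass: 9 of 14 rose and none fell, with a median of 0.75. Apart from PDZK1, they included CLTRN, an apical membrane glycoprotein that was dim in every HGF array. CLTRN was at 7.23, 7.94 and 6.68 with U0126 and at 4.06, 3.45, 3.52 and 3.47 with HGF alone (3.66 ± 0.33). GGT1, a brush border peptidase, was at 9.95, 10.12 and 10.19 with U0126 and at 7.94, 7.87, 7.70 and 7.93 with HGF alone (2.23 ± 0.11). FXYD2, a subunit of the sodium pump, was at 11.10, 11.11 and 11.29 with U0126 and at 9.19, 9.25, 9.36 and 8.99 with HGF alone (1.97 ± 0.16). None of the 3 genes overlapped between groups. The water channel AQP3 and kidney cadherin CDH16, both bright, differed by 0.04 ± 0.08 and 0.17 ± 0.17.

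Primary cilium genes showed the highest share of rises among the lists, 20 of 26 with no fall and a median of 0.895. The cilium is the single sensory antenna of a non-dividing epithelial cell, built by intraflagellar transport (IFT) particles. IFT80 was at 9.32, 9.27 and 9.20 with U0126 and at 4.34, 6.71, 7.29 and 7.21 with HGF alone (2.88 ± 0.41). DYNC2LI1, a chain of the dynein motor that returns these particles to the cell body, was at 9.82, 9.94 and 9.51 with U0126 and at 7.29, 7.75, 7.16 and 7.59 with HGF alone (2.31 ± 0.19). The groups did not overlap for either, although HGF replicate 1 was lowest by far for IFT80. The heavy chain of that motor, DYNC2H1, rose by 2.20 ± 0.21, and RPGRIP1L, of the cilium's transition zone, by 2.39 ± 0.19 between levels that were dim in all 7 arrays. The other rises ranged from 0.37 ± 0.15 for IFT88 to 2.19 ± 0.16 for TMEM67, and IFT20, IFT57, KIF3A, BBS5, IFT122 and CEP290 did not pass.

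Inflammatory genes rose in 9 of 16 cases and fell in 2, with a median of 0.96. CCL2, a monocyte chemokine, was at 13.19, 13.20 and 13.66 with U0126 and at 8.08, 8.09, 7.83 and 7.79 with HGF alone (5.40 ± 0.27, 42.4-fold). CCL7, a related chemokine, was at 8.39, 8.60 and 8.71 with U0126 and at 3.16, 3.84, 3.28 and 3.93 with HGF alone (5.01 ± 0.15, 32.3-fold). CXCL10, which interferon induces, was at 6.23, 6.10 and 6.01 with U0126 and at 3.14, 3.08, 3.10 and 3.06 with HGF alone (3.02 ± 0.15). These 3 chemokines were higher in every U0126 array, and CCL7 and CXCL10 were dim in every HGF array. The NF-kappaB inhibitor NFKBIA rose by 2.02 ± 0.10 and the apoptosis inhibitor BIRC3 by 2.35 ± 0.16. PTGS2, the prostaglandin-producing cyclooxygenase, fell by 0.61 ± 0.25 with overlapping arrays, and its adjusted p of 0.0456 lay near the threshold and was above it in several alternatives, such as 0.213 without U0126 replicate 2. ICAM1 fell by 0.49 ± 0.16, which was not called without U0126 replicate 1 (adjusted p = 0.0595) or 2 (0.108).

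Interferon response genes rose in 12 of 17 cases and fell in 1, with a median of 0.87. IFI44L was at 7.70, 7.69 and 7.76 with U0126 and at 4.43, 4.87, 4.67 and 4.86 with HGF alone (3.01 ± 0.14). It was thus dim in every HGF array, and IFI44 rose by 2.498 ± 0.16 from a dim mean. Genes of antigen processing were among them, with the immunoproteasome subunit PSMB9 up by 1.84 ± 0.11 and the peptide transporter chain TAP1 by 1.56 ± 0.10. The antiviral enzyme OAS2 was the 1 that fell, by 0.62 ± 0.12.

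**Figure D3:**
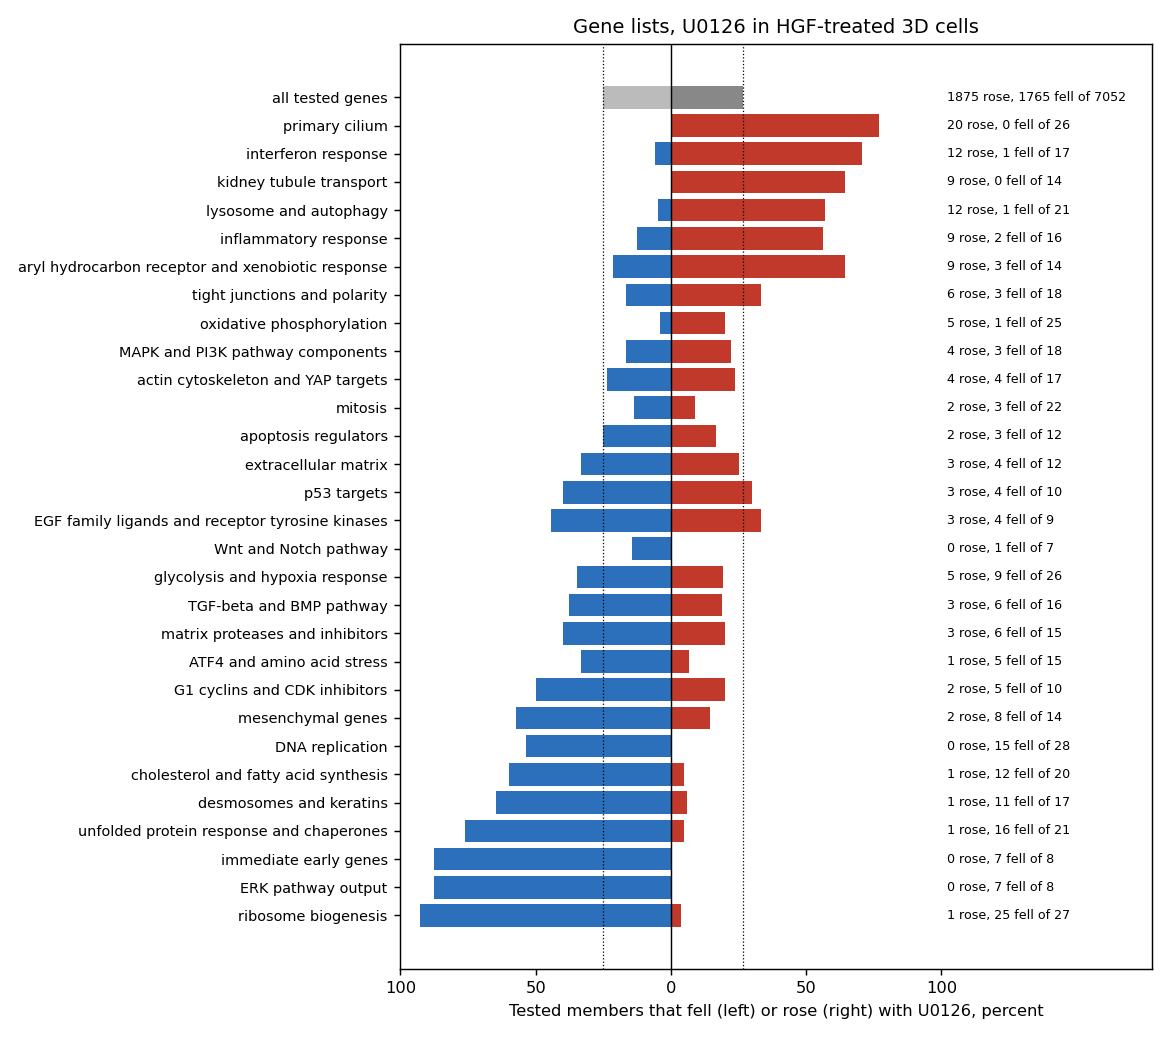
Share of the tested members of each gene list that fell (blue, to the left) or rose (red, to the right) with U0126 in HGF-treated 3D cells, in percent, with counts at the right. Grey bars and dotted lines give the share over all 7052 tested genes, 26.6% rose and 25.0% fell. Cilium genes lie at 20 of 26 rising, and ribosome biogenesis genes at 25 of 27 falling.

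Of 27 tested ribosome biogenesis genes 25 fell and 1 rose, with a median of -1.11. The nucleolar RNA helicase DDX21 was at 9.64, 9.51 and 9.77 with U0126 and at 11.47, 11.50, 11.32 and 10.96 with HGF alone (-1.67 ± 0.15, 3.18-fold). NOB1, the endonuclease that finishes small-subunit ribosomal RNA, was at 8.96, 9.04 and 8.85 with U0126 and at 10.61, 10.69, 10.47 and 10.61 with HGF alone (-1.64 ± 0.13), and NOP56, a core protein of box C/D ribonucleoproteins, fell by 1.37 ± 0.11. None of these overlapped between groups. RRS1 fell by 1.57 ± 0.33, with HGF replicate 2 at 5.80 and the other HGF arrays at 7.43 to 7.77. DKC1, the pseudouridine synthase dyskerin, did not pass, at -1.47 ± 0.63, with U0126 replicate 2 at 7.43 and the other U0126 arrays at 10.45 and 10.04. PES1 rose by 0.47 ± 0.15, and that call was lost without HGF replicate 1 (adjusted p = 0.0558) and without U0126 replicate 2 (0.06335).

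DNA replication genes fell in 15 of 28 cases with no rise and a median of -0.36. The replication factor CDC45 was at 8.37, 8.23 and 8.49 with U0126 and at 9.41, 9.72, 9.79 and 9.78 with HGF alone (-1.31 ± 0.19). The origin-binding ORC1 fell by 1.27 ± 0.16, the helicase loader CDC6 by 1.13 ± 0.19 and ORC6 by 0.96 ± 0.11, while PCNA and RRM2 did not pass, at -0.04 ± 0.13 and 0.23 ± 0.10. Of 22 tested mitosis genes 3 fell and 2 rose, with a median of -0.21. AURKA fell by 0.70 ± 0.15 and KIF23 by 0.48 ± 0.13, and the spindle checkpoint kinase BUB1B rose by 1.26 ± 0.33. Without HGF replicate 1 the number of mitosis genes that fell was 6, and without HGF replicates 1 and 4 it was 5.

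Of G1 cyclins, their kinases and CDK inhibitors, 5 of 10 fell and 2 rose, with a median of -0.52. CDKN1A, the CDK inhibitor p21, was at 9.63, 9.41 and 9.93 with U0126 and at 11.93, 11.60, 11.65 and 11.34 with HGF alone (-1.97 ± 0.21, 3.93-fold). CCND2 fell by 0.93 ± 0.09 and CCNE1 by 0.84 ± 0.12. CDK6 fell by 1.02 ± 0.27 with U0126 replicate 2 lowest at 4.08, and without that array it was not called, at -0.60 (adjusted p = 0.05555). CDKN3, a phosphatase of cyclin-dependent kinases, was at 7.82, 7.69 and 7.77 with U0126 and at 3.97, 5.57, 5.50 and 4.71 with HGF alone (2.83 ± 0.24).

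Cholesterol and fatty acid synthesis genes fell in 12 of 20 cases and rose in 1, with a median of -0.47. INSIG1, the sterol-regulated retention protein, was at 9.54, 9.41 and 9.41 with U0126 and at 11.27, 10.73, 11.06 and 10.74 with HGF alone (-1.49 ± 0.14). Fatty acid synthase, FASN, fell by 1.04 ± 0.16 and squalene synthase, FDFT1, by 0.98 ± 0.09. The rise of ACACA, by 0.40 ± 0.14, was not called without HGF replicate 1 (adjusted p = 0.0892) or U0126 replicates 2 (0.0898) or 3 (0.0869).

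Chaperones and genes of the unfolded protein response fell in 16 of 21 cases and rose in 1, with a median of -0.49. SDF2L1, a cofactor of chaperones in the endoplasmic reticulum, was at 10.55, 10.37 and 10.69 with U0126 and at 12.51, 12.20, 12.40 and 12.05 with HGF alone (-1.75 ± 0.10). DNAJB9 fell by 1.004 ± 0.13, the disulfide isomerase PDIA4 by 0.97 ± 0.11 and the chaperone HSPA5, also called BiP, by 0.52 ± 0.09, whereas the cytosolic HSPH1 rose by 0.75 ± 0.10. In the list of ATF4 targets and amino acid stress, 5 of 15 fell and 1 rose, with a median of -0.22. The 5 were SHMT2, of mitochondrial serine metabolism (-0.82 ± 0.11), and 4 aminoacyl-tRNA synthetases, MARS1, NARS1, AARS1 and SARS1 (-0.57 to -0.45), and the riser was the lipoprotein receptor VLDLR (3.52 ± 0.13).

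Of glycolysis and hypoxia response genes 9 of 26 fell and 5 rose, with a median of -0.21. PFKFB3, which makes the activator of phosphofructokinase, was at 5.25, 5.42 and 5.94 with U0126 and at 9.41, 9.32, 9.45 and 9.20 with HGF alone (-3.81 ± 0.19, 14.0-fold). The glucose transporter SLC2A1 fell by 0.63 ± 0.13 and LDHA by 0.46 ± 0.11. Adrenomedullin, ADM, was at 11.25, 10.91 and 11.33 with U0126 and at 8.999, 8.78, 8.92 and 8.77 with HGF alone (2.29 ± 0.16). ENO2, the neuronal enolase, rose by 3.43 ± 0.18 from a dim mean. Members of the same list thus moved far in both directions.

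Xenobiotic response genes rose in 9 of 14 cases and fell in 3, with a median of 0.61. CYP1B1, a cytochrome P450 induced through the aryl hydrocarbon receptor, was at 14.27, 13.46 and 14.31 with U0126 and at 12.24, 11.12, 12.30 and 12.06 with HGF alone (2.09 ± 0.22). UGT1A6 rose by 4.95 ± 0.29, the efflux pump ABCC2 by 2.89 ± 0.23 and TIPARP, a target of the same receptor, by 1.53 ± 0.41. The means of UGT1A6 and ABCC2 with HGF alone were dim. The receptor AHR fell by 0.85 ± 0.13. No probe set was named for CYP1A1 alone.

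Lysosome and autophagy genes rose in 12 of 21 cases and fell in 1, with a median of 0.55. GABARAPL1, an autophagosome protein, was at 10.76, 10.84 and 10.99 with U0126 and at 8.52, 8.29, 8.44 and 7.99 with HGF alone (2.56 ± 0.11). The proton pump subunit ATP6V1A rose by 1.71 ± 0.24, acid glucosidase, GAA, by 1.02 ± 0.22 and the lysosomal membrane protein LAMP2 by 0.93 ± 0.11. GAA did not exceed log2 5.756 in these 7 arrays, and its mean with HGF alone was dim. The cholesterol transporter NPC1 was the 1 that fell, by 0.37 ± 0.11, and it was not called when these 7 arrays were fitted alone (adjusted p = 0.06151).

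Of actin cytoskeleton genes and YAP targets, 4 of 17 rose and 4 fell, with a median of -0.17. ANKRD1, a YAP target, rose by 2.32 ± 0.24 and transgelin, TAGLN, by 1.80 ± 0.24, while actinin, ACTN1, fell by 1.79 ± 0.29. The number that rose was 2 without U0126 replicate 3 and 2 without HGF replicates 1 and 4, where CCN1 and LIMA1 were no longer called.

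The same compound was tested on HGF-treated cells in 2D, which share no array with those in 3D. In 2D 1763 genes rose (25.0%) and 1893 fell (26.8%). Of the genes called, 2002 moved in the same direction in both cultures, 1038 up and 964 down, which is 55.0% of those called in 3D and 54.8% of those called in 2D. Effects are compared with their sign, so a gene that fell less in 3D counts as higher there, and one that fell more as lower. The U0126 effect in 3D minus that in 2D was higher for 1521 genes (21.6%) and lower for 1152 (16.3%), with a median of 0.02. Over probe sets it was higher for 3302 (19.9%) and lower for 2750 (16.6%), by 2-fold or more for 1565 (9.44%) and 901 (5.44%). The excess of higher calls was not kept under quantile normalization, with 3378 higher and 3287 lower, under median centring, with 3170 and 3207, or with array weights, with 3503 and 3486. Opposite calls were made for 329 genes, of which 193 rose in 3D and fell in 2D.

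CXCL8 gave the largest such difference, 7.70 ± 0.25. It was dim in all 2D arrays, at 2.98, 2.99 and 3.02 with U0126 and at 3.00, 2.99, 2.99 and 3.00 with HGF alone. CCL7 behaved alike, with 5.06 ± 0.21 and 2D levels of 3.03 to 3.09 with U0126 and 3.07 to 3.13 with HGF alone. For ISG20, an interferon-induced exonuclease, the difference of 7.14 ± 0.15 came from 2D, where levels were 1.63 to 1.66 with U0126 and 8.64 to 9.08 with HGF alone, while in 3D all 7 arrays lay between 1.68 and 1.75. TFPI2, an inhibitor of plasmin, rose in 3D and fell in 2D by 5.77 ± 0.25, for a difference of 6.45 ± 0.36. Its mean with U0126 in 2D was dim, so background sets the size of that fall. TMEM45B also rose in 3D and fell in 2D, at 2.59 ± 0.26 in 3D and -2.91 ± 0.26 in 2D.

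In the other direction MMP1 fell by 6.98 ± 0.48 in 3D and by 2.37 ± 0.48 in 2D, a difference of -4.60 ± 0.68. Its HGF arrays in 2D were at 5.27, 6.15, 3.66 and 7.42, all below those in 3D. With U0126 MMP1 was dim in every 3D array, and its mean was dim in 2D. Both falls thus ended at background, and they differ by their starting levels with HGF alone. GPC3, a glypican of the cell surface, was at 5.50, 5.68 and 5.30 with U0126 and at 9.08, 9.19, 9.08 and 8.59 with HGF alone in 3D, and in 2D it was at 5.60, 5.39 and 5.32 with U0126 and at 5.07, 5.26, 5.01 and 5.50 with HGF alone. Its fall was thus seen in 3D, and the difference was -3.71 ± 0.27. The metalloreductase STEAP2, C9H17orf97 and AK8 had differences of -5.16 ± 0.42, -4.35 ± 0.32 and -3.91 ± 0.36. They rose in 2D, by 4.82, 4.31 and 4.29, and did not pass in 3D. For PDZK1 the difference between cultures was 0.20 ± 0.31 (95% interval -0.43 to 0.83) and for TIMP1 -0.33 ± 0.43 (-1.205 to 0.55), and neither passed.

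Some lists differed between the cultures. Their counts are to be read against 21.6% higher and 16.3% lower over all tested genes. Ribosome biogenesis genes had a lower, more negative effect in 3D for 20 of 27 and a higher one for none. In 2D 10 of them fell and 2 rose, with a median of -0.215, against -1.11 in 3D. Desmosome, hemidesmosome and keratin genes had a higher, more positive effect in 3D for 10 of 17 and a lower one for none. DSG3, for example, fell less in 3D, with -2.97 ± 0.18 there and -6.51 ± 0.18 in 2D. Its mean with U0126 in 2D was dim, so background sets the size of that fall. CDKN1A fell by 1.97 ± 0.21 in 3D and by 5.42 ± 0.21 in 2D. The inflammatory and interferon lists each had 11 genes with a higher effect in 3D and none with a lower one, of 16 and 17. Glycolysis and hypoxia genes had 16 of 26 higher and 1 lower, and ADM was among them at 2.29 ± 0.16 in 3D and -1.59 ± 0.16 in 2D. Of 26 cilium genes, 6 were higher, close to the share over all genes, and 2 were lower, under that share. In 2D 22 of them rose and 1 fell, with a median of 0.99.

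**Figure D4:**
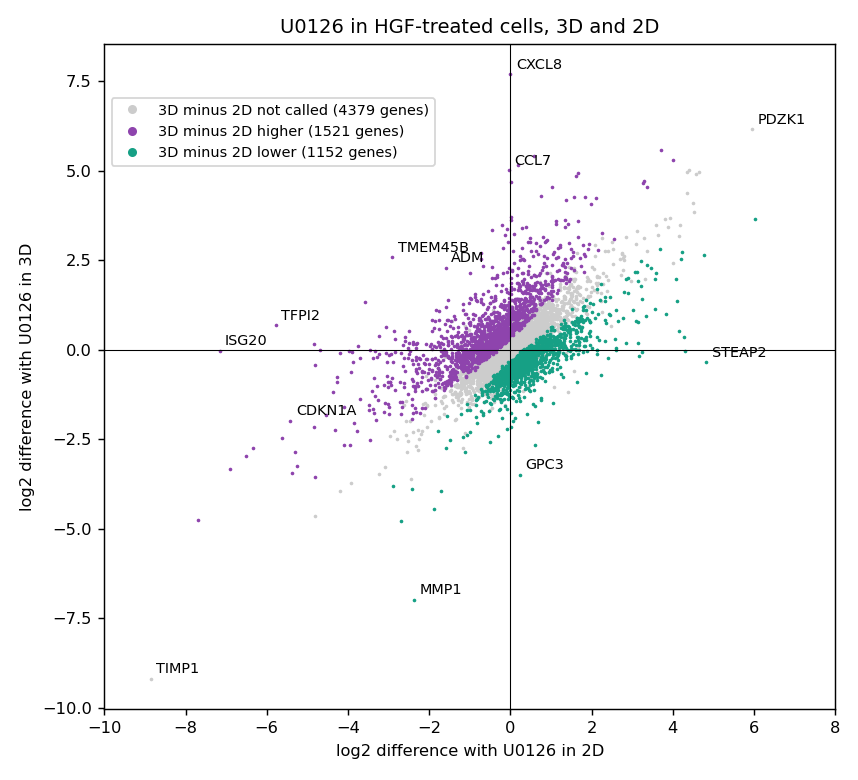
Log2 difference between HGF with U0126 and HGF alone in 3D (y axis) and in 2D (x axis), 1 point for each of 7052 genes, coloured by the call for the difference between both effects. The 1521 purple genes have a more positive effect in 3D and the 1152 green ones a more negative effect. CXCL8 lies at 7.70 in 3D and 0.00 in 2D, and ISG20 at -0.02 in 3D and -7.16 in 2D.

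**Figure D5:**
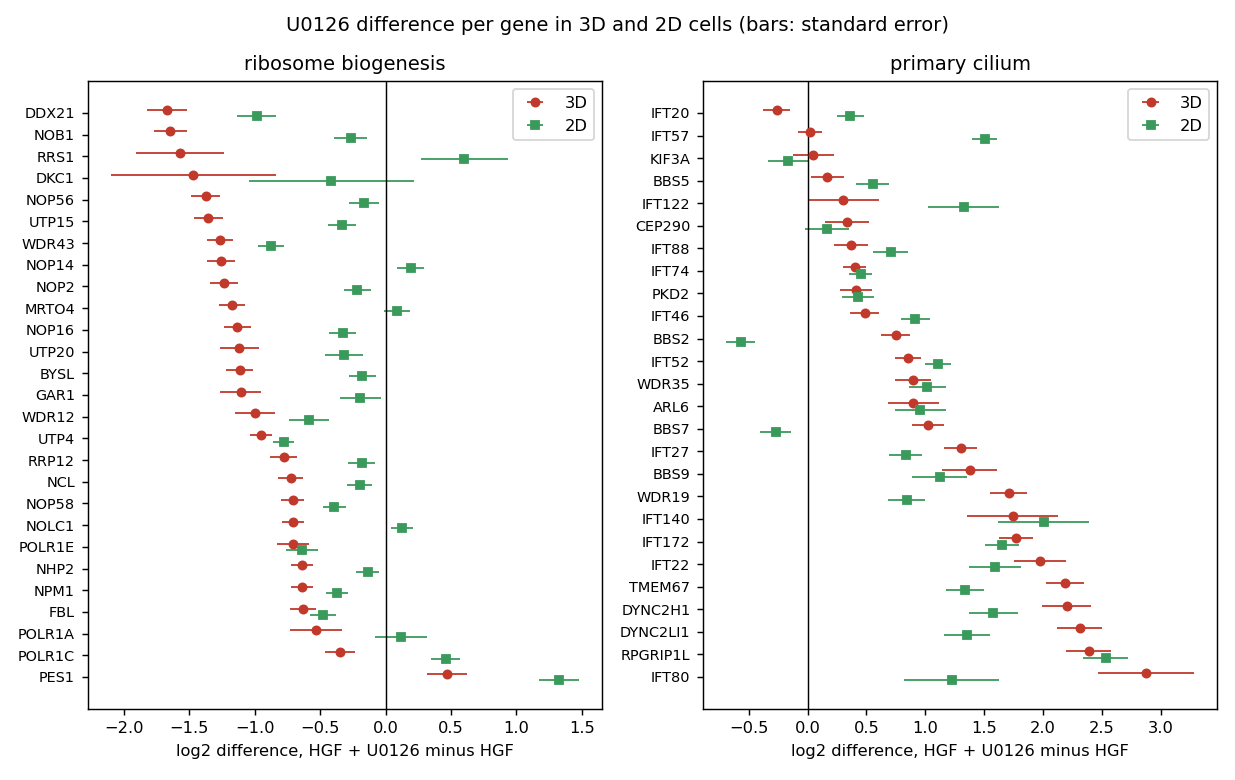
Log2 difference between HGF with U0126 and HGF alone (x axis) for the 27 tested ribosome biogenesis genes and the 26 tested primary cilium genes (y axis), in 3D (circles) and 2D (squares), with bars for the standard error. Most ribosome biogenesis genes lie further below 0 in 3D, with a median of -1.11, than in 2D, with a median of -0.215, whereas most cilium genes lie above 0 in both, with medians of 0.895 in 3D and 0.99 in 2D.

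PD-98059, a flavone, inhibits the same kinase as U0126, which belongs to another chemical class. As the doses are not given, the values compare the cultures as they were labelled. U0126 minus PD-98059 in HGF-treated 3D cells was higher for 219 genes (3.11%) and lower for 698 (9.90%), with a median of -0.08. Over probe sets 495 were higher (2.99%) and 1462 lower (8.82%), by 2-fold or more in 129 (0.778%) and 92 (0.555%), so that 25.3% of the calls were higher, against 740 and 1111, or 40.0%, under quantile normalization. The 495 became 286 without U0126 replicate 1, 274 without PD-98059 replicate 2 and 301 without PD-98059 replicate 3, and the 1462 became 780 without U0126 replicate 1, 730 without U0126 replicate 2, 971 without PD-98059 replicate 2 and 609 without PD-98059 replicate 3.

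ERK output genes were lower with U0126 than with PD-98059 in 5 of 8 cases and higher in none. DUSP6 was at 12.48, 12.64 and 12.77 with U0126 and at 13.33, 13.36 and 13.43 with PD-98059, a difference of -0.74 ± 0.11. DUSP5 was also lower, with a difference of -1.07 ± 0.23, and CCND1, MYC and PHLDA1 had differences of -0.46, -0.70 and -0.80. All 5 fell against HGF alone with either compound, where PD-98059 raised 28.9% and lowered 15.2% of all tested genes. Ribosome biogenesis genes were lower with U0126 in 20 of 27 cases and higher in none, with a median of -0.40, and cholesterol and fatty acid synthesis genes in 13 of 20 with none higher and a median of -0.48.

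Single genes differed far more. DKK3, a secreted Wnt pathway modulator, was at 4.42, 4.32 and 4.79 with U0126 and at 8.34, 8.23 and 8.43 with PD-98059 (-3.82 ± 0.27), and HGF alone was dim as well, at 3.58 to 4.49. TIMP1 was at 4.80, 4.97 and 3.68 with U0126 and at 6.97, 7.36 and 7.33 with PD-98059 (-2.74 ± 0.32), and MMP13 at 8.21, 8.16 and 8.63 with U0126 and at 11.06, 10.58 and 11.01 with PD-98059 (-2.55 ± 0.40). The ferroxidase HEPH and the growth factor carrier FGFBP1 were also lower, by 2.44 ± 0.23 and 1.85 ± 0.39. In the other direction CXCL8 was at 10.75, 10.68 and 11.13 with U0126 and at 7.82, 8.47 and 8.97 with PD-98059 (2.43 ± 0.19). CLTRN (3.21 ± 0.36), the adaptor BLNK (2.98 ± 0.29), CXCL10 (2.57 ± 0.16) and the transcription factor DACH1 (2.503 ± 0.26) were higher with U0126 too. No difference was called for PDZK1 (0.50, 95% interval 0.03 to 0.98), UGT1A6 (0.24, -0.40 to 0.88), CCL7 (0.17, -0.15 to 0.495) or MMP1 (-0.08, -1.14 to 0.975).

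HGF with U0126 was also set against untreated 3D cells. It was higher for 1033 genes (14.6%) and lower for 1377 (19.5%). Over probe sets 2351 were higher (14.2%) and 3247 lower (19.6%), by 2-fold or more in 472 (2.85%) and 453 (2.73%). No difference from control was called for some of the genes that moved most: CXCL8 was at 10.69, 11.38, 11.15 and 10.91 in control (-0.18, 95% interval -0.55 to 0.19), MMP1 at 3.33, 3.25, 3.41 and 3.15 (0.01, -0.98 to 1.003) and CCND1 differed by 0.17 ± 0.13 (-0.09 to 0.43). UGT1A6, FABP1 and MGST1 were higher with HGF and U0126 than in control by 3.34 ± 0.29, 3.19 ± 0.25 and 3.00 ± 0.31. MMP13 was at 8.21, 8.16 and 8.63 with HGF and U0126 and at 12.41, 12.69, 12.39 and 12.57 in control (-4.18 ± 0.37), and its levels with HGF alone ran from 12.81 to 13.39. FOS was lower than control by 1.55 ± 0.10 and EGR1 by 1.82 ± 0.29.

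The complement component C3 was at 4.40, 4.36 and 3.91 with HGF and U0126 and at 7.87, 7.45, 7.85 and 7.54 in control (-3.45 ± 0.21), and the selenium carrier SELENOP was lower by 3.25 ± 0.30. CXCL10, which rose with U0126, stayed below control by 2.87 ± 0.15. Of 28 DNA replication genes, 19 were higher than in control and none lower, of 22 mitosis genes 17 were higher and none lower, and of 27 ribosome biogenesis genes 12 were higher and none lower. Other lists stood below control. Of 17 interferon response genes 14 were lower and none higher, with a median of -0.83, although 12 of the 17 rose against HGF alone. Of 21 lysosome and autophagy genes 12 were lower and none higher. The same held for 10 of 18 tight junction and polarity genes, 9 of 12 extracellular matrix genes and 8 of 17 desmosome, hemidesmosome and keratin genes. Inflammatory genes were lower in 9 of 16 cases and higher in 1. The comparisons with HGF alone and with control share the U0126 arrays, so they are not independent of each other.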

How the data were processed

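Gene expression was measured on 29 Affymetrix canine arrays of MDCK cells in 8 groups, of which 7 arrays give the main comparison. The authors deposited 1 log2 level per probe set and array, and these log2 values were used as deposited. Per the submitters' processing notes, MAS5, GCRMA, Affymetrix Expression Console 1.1 and Partek 6.6 were used, with no role or order given. Of 43035 probe sets, 111 were array controls. Of the other 42924, 29254 carried 1 gene symbol in GEO's platform annotation, 439 several and 13231 none. The 16571 probe sets at log2 5 or more in at least 3 arrays were tested.

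A linear model of 8 group means was fitted with limma 3.58.1 (R 4.3.3) and moderated with a mean-variance trend, and p-values were adjusted by Benjamini-Hochberg over 16571 probe sets, with a threshold of 0.05. The procedure was tested on simulated data. These gave all 8 groups the same spread per probe set, so they cannot show whether errors are too small for the more variable HGF arrays. A gene was represented by its tested probe set with the highest mean level. Named genes were the 12 largest differences in each direction for the main comparison, 5 for the comparisons with 2D and with PD-98059 and 3 for control, among passing genes with no overlap of arrays and a higher mean of log2 6 or more, then up to 4 members of each list in each direction and a set of pathway genes. Further members were named after their values were seen. The members and lists were chosen with earlier results of these data known. Alternatives covered the filter, variance trend, arrays in the fit, quantile normalization, median centring, array weights, the replicate number, a 2-fold minimum, RNA quality, probe sets per gene and each array left out. Arrays carry no read depth, and their number limits the precision.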

Additional observations from a re-analysis of the deposited data

Results flagged for a closer look

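In the 4 HGF arrays of 3D cells, 1 array lay apart from the other 3 for 15 of 173 genes examined. Chance would set apart about 5% if the genes were independent. They share the same 4 arrays and were not drawn at random, so this share is no test. CXCL8 and ARHGAP24 were dim in every HGF array. HGF replicate 1 was the array for CXCL8 (3.404), DUSP5 (9.209), ASPM (7.246), BCL2L1 (9.47), SDHC (12.67) and AXIN2 (8.831). HGF replicate 2 was the array for ARHGAP24 (3.254), AARS1 (12.28) and RRS1 (5.801), and replicate 3 for DNAJB9 (9.916). HGF replicate 4 was the array for PSMB9 (9.542), COL4A2 (9.118), MCL1 (12.82), BIRC2 (11.86) and ATP6V1A (7.268).

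The next 10 genes were chosen as the largest called differences between the U0126 effects in 3D and 2D cells, so their passing limma's test of the difference was set by that choice. The effect in 3D minus that in 2D was 7.698 for CXCL8, 7.136 for ISG20, 6.454 for TFPI2, 5.502 for TMEM45B and 5.06 for CCL7. It was -5.164 for STEAP2, -4.604 for MMP1, -4.35 for C9H17orf97, -3.914 for AK8 and -3.713 for GPC3.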

How the results depend on the processing

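The alternatives were recomputed for 203 gene results, which do not cover every gene named. PLAU, MMP2, LAMB3, VIM and NFKBIA, for example, were not among them. Of 3491 recomputed values, 3351 kept their direction and their side of the threshold, 137 lost the call, 1 gained it and 2 changed sign. Both changes of sign were of MAP2K1, at -0.0072017 under median centring and -0.006825 without U0126 replicate 3, in a range up to 0.15842 when 1 array was left out. For U0126 against HGF alone, leaving out 1 array gave 3790 to 4242 probe sets that rose and 3292 to 4154 that fell. Fitting the compared groups alone gave 2995 and 2700, and it lost the call in 29 of 203 gene results, the most of any setting. A 2-fold minimum left 1668 and 921, and it left 1565 and 901 for 3D minus 2D, 129 and 92 for U0126 against PD-98059, and 472 and 453 for HGF with U0126 against control. The comparison with PD-98059 depended most on the arrays, with 274 to 529 higher and 609 to 1614 lower when 1 array was left out. Array weights gave 1671 higher and 3776 lower there, and 3794 higher against control. With no filter 971 were lower than with PD-98059, and with the compared groups alone 926. Mitosis genes that fell numbered 5 without HGF replicates 1 and 4, and 3 to 6 when 1 array was left out. Actin and YAP genes that rose numbered 2 without HGF replicates 1 and 4, and 2 to 4 with 1 array left out, as for the MAPK and PI3K list, also 2 to 4. The causes were not tested.

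The rule for pairing, a correlation over 0.1 between the deviations of every same-numbered pair, was not met. Arrays of U0126 and HGF numbered 1, 2 and 3 had correlations of 0.107, 0.409 and -0.038, and those of U0126 and PD-98059 had 0.401, 0.271 and 0.0127. Own-number correlations were thus partly above 0. Among the HGF arrays, U0126 replicate 2 correlated best with HGF replicate 2. The own number was also highest for U0126 replicate 1 among the PD-98059 arrays and for U0126 replicate 3 among the control arrays (0.165). In 2D this held for U0126 replicate 3 among the HGF arrays (0.238). It was not so for the other same-numbered pairs examined. With the replicate block, 4192 probe sets rose and 3840 fell with U0126. The block gave 3260 and 2691 for 3D minus 2D, 468 and 1371 against PD-98059, and 2356 and 3110 against control. Median centring moved the median of all probe sets by the most among the scalings, to -0.0894.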

Other observations

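Of 16 tested genes of the TGF-beta and BMP pathway, 6 fell and 3 rose with U0126, with a median of -0.235. BMP2, a bone morphogenetic protein, was at 10.28, 9.09 and 10.08 with U0126 and at 12.67, 11.30, 12.14 and 12.13 with HGF alone (-2.25 ± 0.31), and BMP7 fell by 1.22 ± 0.11. The activin antagonist FST was at 7.32, 7.66 and 7.80 with U0126 and at 9.37, 11.34, 9.85 and 8.44 with HGF alone (-2.16 ± 0.40). ID1 and ID3, known targets of BMP signalling, rose by 2.01 ± 0.24 and 1.83 ± 0.16. In the arrays of both groups all 5 genes were without overlap, as were 44.5% of all tested genes.

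Of 10 tested p53 targets 3 rose and 4 fell, with a median of 0.27, and of 12 apoptosis regulators 2 rose and 3 fell, with a median of 0.14. CCNG1, a p53 target, rose by 0.80 ± 0.10 and PLK3 fell by 0.98 ± 0.15. Of 25 oxidative phosphorylation genes 5 rose and 1 fell, with a median of -0.05. The exception was CYCS, cytochrome c, which fell by 0.60 ± 0.11. Of 12 extracellular matrix genes 3 rose and 4 fell, with a median of -0.155, and of 7 Wnt and Notch genes AXIN2 alone passed, with a fall of 1.04 ± 0.20.

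Replicate 2 was low in both groups for a few genes. DKC1 was at 10.45, 7.43 and 10.04 with U0126 and at 11.56, 10.10, 10.74 and 10.70 with HGF alone. GRB2, an adaptor of receptor kinases, was at 10.44, 7.43 and 9.99 with U0126 and at 10.79, 8.90, 10.18 and 10.41 with HGF alone. CENPF, a kinetochore protein, was at 9.24, 6.79 and 8.99 with U0126 and at 9.37, 6.57, 8.69 and 8.81 with HGF alone. In each gene the second value of either group was its lowest, and these genes were chosen after their values were seen.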
